A study of Mus musculus with 25 samples.

Results

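The subunits of the oxidative phosphorylation system were examined in the sciatic nerve of mouse models of Charcot-Marie-Tooth disease type 1A (CMT1A). The 93 genes described here, of 56956 in the table of counts, are protein-coding genes whose symbols name subunits of the respiratory chain or of ATP synthase. They were found by the beginning of the symbol (mt-Nd, mt-Co, mt-Atp and mt-Cytb, Nduf with the letters a, b, c, s or v and a number, Sdha to Sdhd, Uqcr, Cox4 to Cox8, and Atp5). Assembly factors were left out and a mean of at least 1 CPM (counts of a gene scaled to a common library total) over the 25 libraries was required. The symbol pattern matched 120 genes, of which 102 were protein-coding, and 9 of these were below 1 CPM. Just inside that limit lay Cox6a2 (1.03 CPM) and Cox8b (1.06 CPM), and just outside it lay Cox4i2 (0.906 CPM).

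RNA of whole sciatic nerve of 5 groups was sequenced, with 1 library per group at each of the ages 3, 5, 7, 9 and 12 weeks. Each library was a pool of nerves from 4 to 5 untreated animals of both sexes. C3 mice carry 5 and C22 mice 10 extra copies of human PMP22 on a yeast artificial chromosome, and the C3 line arose as a spontaneous partial revertant of C22. The C3 mice and their WT-C3 controls were C57BL/6J, and the C22 mice and their WT-C22 controls were FVB/NRJ. Strain and the number of PMP22 copies therefore cannot be told apart between the models. The fifth group, C3-PMP22 c-JunP0Cre, carries the C3 transgene and lacks c-Jun in Schwann cells, by a Cre driven by the P0 promoter. The labels give no strain for that group. Within a group the 5 libraries of different age were taken as replicates (n = 5), so every SD and standard error (SE) includes change with age, and p-values measure the spread among these pools.

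Oxidative phosphorylation passes electrons from NADH and succinate through complexes I to IV to oxygen, and the proton gradient that this builds drives ATP synthase, complex V. Each complex except complex II combines a few proteins encoded by mitochondrial DNA with more encoded in the nucleus, and many of the nuclear-encoded ones are small accessory proteins with short mRNAs. In peripheral nerve these complexes serve axons, Schwann cells and other cells alike, and loss of mitochondrial function in Schwann cells is known to cause neuropathy in mice.

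Complex I had 5 mitochondrial and 36 nuclear members, complex II 4 nuclear members, and complex III 1 and 8. Complex IV had 3 and 17, among them Ndufa4 and Ndufa4l2, which belong to complex IV despite their names. Complex V had 1 and 18. Of the 93 members, 91 passed the filter on low values, which required 7 of 25 libraries with a log2 CPM over 1, and Cox6a2 and Cox8b did not. Beside the 10 mitochondrial members, mt-Nd3, mt-Nd4l and mt-Atp8 averaged 0.599, 0.175 and 0.0469 CPM and fell below the limit. Depth ran from 2140142 to 49072746 counts on genes, with a median of 24663235. The lowest was the C3 library of 9 weeks, and the 5 WT-C3 libraries, at 9001002 to 16264172 counts, were shallower than all but that library and WT-C22 at 5 weeks. The 7 markers of myelinating Schwann cells summed to 55778 to 99323 CPM in WT-C3, 36451 to 55485 CPM in C3, 34424 to 65466 CPM in C3-PMP22 c-JunP0Cre, 45127 to 93219 CPM in WT-C22 and 23196 to 35413 CPM in C22, so that in both models every library lay below every control library in the sum. Single markers of this list were called in both directions in each model, as given below. Jun, the targeted gene, lay at 26.3 to 31.7 CPM in C3-PMP22 c-JunP0Cre against 93.8 to 125 CPM in C3, a log2 difference of -1.90 (SE 0.09, edgeR adjusted p = 7.29e-07).

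Values per library are CPM after TMM scaling in edgeR, and those of a group are given from 3 to 12 weeks. Per kilobase of exon, the most abundant member was mt-Nd1 in complex I, Sdha in complex II, mt-Cytb in complex III, mt-Co1 in complex IV and Atp5f1b in complex V. The least abundant were Ndufb9, Sdhb, Uqcr11, Cox8b and Atp5po in the same order. The mitochondrial members together took 1.03% to 2.78% of the counts of a library and 65.7% to 86.7% of the counts on all members.

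The mitochondrial genes differed widely in CPM per kilobase, from 6059 for mt-Co1, a catalytic subunit of complex IV, and 3764 for mt-Cytb to 25.5 for mt-Co2 and 9.81 for mt-Atp6. The genes with low values lie in a stretch of mitochondrial DNA that is also present in the nuclear genome. On GRCm39, the assembly used by the authors for alignment, chr1:24650616-24655269 matched mitochondrial bases 6390 to 11042 at 99.936% identity over 4654 aligned bases, with 2 mismatches and 1 gap. Of the 13 mitochondrial genes, 6 lie wholly inside that stretch (mt-Co2, mt-Atp8, mt-Atp6, mt-Co3, mt-Nd3 and mt-Nd4l), 2 in part (mt-Nd4 for 63.6% of its length and mt-Co1 for 31.3%) and 5 outside it. A fragment that aligns to both places is not counted on either gene, so the level of these 6 genes is uncertain. The values of mt-Nd4 and mt-Co1 are uncertain for the part of their length inside the stretch. The following window of mt-Co2 (chrM:7313-7412, plus strand) and its copy (chr1:24654247-24654346, minus strand) are shown because not 1 base separates them, and no base is capitalised for that reason.
mt-Co2: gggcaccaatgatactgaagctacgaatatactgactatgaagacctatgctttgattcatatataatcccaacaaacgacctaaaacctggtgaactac
copy of mt-Co2: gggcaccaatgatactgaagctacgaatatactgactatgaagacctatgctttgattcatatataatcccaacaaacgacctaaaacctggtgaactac
The low value of mt-Nd6 (78.4 CPM per kilobase) does not come with such a copy. mt-Nd6 is the 1 member encoded on the other strand of mitochondrial DNA, and the strand setting of the counting is not given in the sources used here.

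**Figure D1:**
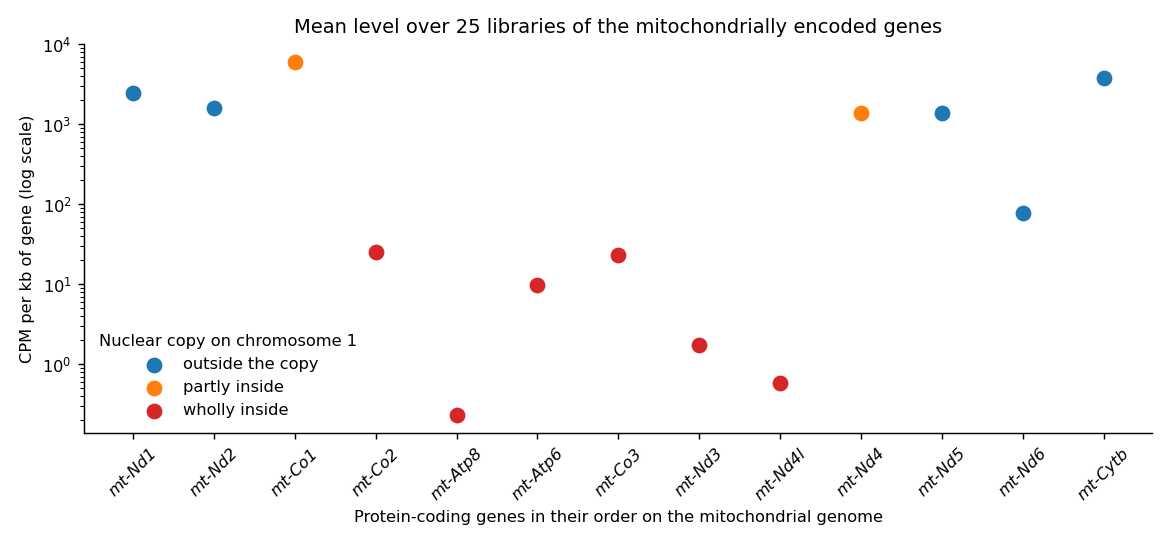
Mean CPM per kilobase of gene over the 25 libraries, on a log axis, of the 13 mitochondrial genes in their order on the mitochondrial genome, coloured by whether they lie outside, partly inside or wholly inside the chromosome 1 copy. Genes wholly inside it have at most 25.5 CPM per kilobase, and mt-Nd6 is the lowest of those outside.

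A second near-identical pair concerned Ndufs5, a small subunit of complex I (ENSMUSG00000028648, chr4:123606481-123612002, minus strand). Its coding sequence matched the pseudogene Ndufs5-ps (annotated at chr16:42775994-42776312, plus strand) over all 321 bases, at chr16:42775994-42776314, with 2 differences, T81C and A105G, counted from the first base of the start codon with the base of Ndufs5 first. The first 150 coding bases are shown with these differences in capitals.
Ndufs5: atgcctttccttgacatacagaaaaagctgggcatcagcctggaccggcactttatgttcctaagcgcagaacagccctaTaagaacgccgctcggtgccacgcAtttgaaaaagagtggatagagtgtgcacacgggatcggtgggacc
Ndufs5-ps: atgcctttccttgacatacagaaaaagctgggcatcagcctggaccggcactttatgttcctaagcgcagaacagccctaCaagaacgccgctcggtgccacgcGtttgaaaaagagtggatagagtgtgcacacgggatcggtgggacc
Copies at 98% identity or more over the whole coding sequence were also found for Ndufb4, Uqcrb, Uqcr11, Cox5b, Cox7c, Atp5mc1, Atp5mc2, Atp5mk and Atp5pd among the nuclear members. The values of these members are uncertain to the extent that fragments were shared with a copy.

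In C3 against WT-C3, the subunits encoded in the nucleus were mostly lower in the model. Of the 91 members tested, 55 were lower and 0 higher at an adjusted p under 0.05 (edgeR quasi-likelihood test, Benjamini-Hochberg adjustment over 13993 genes), against 11.4% of all genes lower and 12.5% higher. The median log2 fold change was -0.56 over the members and 0.00 over all genes. Ndufa1, Ndufb1 and Ndufb9 of complex I and Atp5me of complex V were among the 5 that fell most, and the large catalytic subunits of complexes I, II and V differed little. Fewer cells of a type and less RNA per cell cannot be told apart in whole nerve. The summed markers of myelinating Schwann cells were also lower in every C3 library than in every WT-C3 library. The sum rests mostly on the most abundant markers, and single markers were called in both directions, as given below. Their part in the values of the members was not tested. In 27 members the C3 libraries all lay below the WT-C3 libraries, against 8.23% of all genes, and in 0 they all lay above, against 9.27%. With scaling by library size alone 45 members were lower and 1 higher, where all genes split into 2582 higher and 1036 lower in place of 1743 and 1602.

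By complex, the nuclear members of complex I had 24 of 36 lower with a median of -0.52, those of complex III 5 of 8 with a median of -0.76, and those of complex V 11 of 18 with a median of -0.51. The nuclear members of complex IV had 14 of 15 lower with a median of -0.74. Of the 4 complex II genes 0 were called, with a median of -0.10. The complexes also differ in the length of their genes. The median coding length of the nuclear members was 447 bases in complex I, 679.5 in II, 303 in III, 294 in IV and 432 in V. Complex and coding length therefore cannot be told apart in these counts. Of the 10 mitochondrial members 1 was lower, mt-Atp6, and their median was -0.28, with all 10 below 0.

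Atp5me, a small membrane subunit of ATP synthase (ENSMUSG00000050856, chr5:108581110-108582949, minus strand), had 16.1, 14.1, 14.9, 14.5 and 23.1 CPM in WT-C3. In C3 it had 2.96, 2.60, 2.13, 8.87 and 4.95 CPM. All 5 C3 libraries lay below all WT-C3 libraries, and the log2 fold change was -2.22 (SE 0.31, adjusted p = 0.000635). The same order was seen for Ndufb1, an accessory subunit of the membrane arm of complex I, at 9.76, 9.00, 12.8, 11.3 and 10.6 CPM in WT-C3 and 2.09, 1.39, 2.15, 6.07 and 4.41 CPM in C3 (log2 fold change -1.95, SE 0.32, adjusted p = 0.00155). Ndufa1, another membrane-arm subunit, had 12.3 to 20.0 CPM in WT-C3 and 3.39 to 13.1 CPM in C3, where the library of 9 weeks alone reached the WT-C3 range, and fell by 1.68 on the log2 scale (SE 0.31, adjusted p = 0.00287).

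Ndufb9 had 7.50, 6.48, 5.72, 5.32 and 8.06 CPM in WT-C3 and 1.76, 1.36, 1.49, 7.01 and 2.31 CPM in C3. The value of 7.01 CPM, at 9 weeks, came from the library of 2140142 counts, and the other 4 C3 libraries lay below every WT-C3 library. Ndufb9 fell by 1.66 (SE 0.35, adjusted p = 0.00577). The lowest p among the members was that of Cox7c, a small subunit of complex IV, at 69.7, 58.4, 70.8, 71.3 and 80.5 CPM in WT-C3 and 20.3, 18.1, 18.0, 38.3 and 30.2 CPM in C3 (log2 fold change -1.56, SE 0.19, adjusted p = 0.000278).

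Among the subunits of complex IV that come as paralogs, Cox4i1, the nuclear subunit present in most tissues, fell by 0.53 (adjusted p = 0.0252), and Cox6a1 by 0.62 (adjusted p = 0.0467). Cox6b1 fell by 0.84 (adjusted p = 0.0100) and Cox6b2, known from testis, by 1.25 (adjusted p = 0.0115). Cox7a1, the isoform of heart and skeletal muscle, fell by 1.59 (SE 0.25, adjusted p = 0.00119), Cox7a2, its counterpart in other tissues, by 0.68 (adjusted p = 0.0107), and Cox7a2l, which takes part in joining complexes III and IV, by 0.44 (adjusted p = 0.00811). Cox8a fell by 0.73 (adjusted p = 0.0174) and Ndufa4 by 0.99 (adjusted p = 0.0018). The paralog Ndufa4l2, known as a gene induced by hypoxia, had 6.52 to 8.18 CPM in WT-C3 and 3.27 to 5.96 CPM in C3, and the 2 groups did not overlap, but its log2 fold change of -0.43 had an adjusted p of 0.062.

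The ATP synthase inhibitor Atp5if1 (ENSMUSG00000054428, chr4:132257215-132262823, minus strand) had 37.5, 38.2, 35.7, 40.4 and 46.8 CPM in WT-C3. It had 22.8, 21.1, 20.6, 26.2 and 28.3 CPM in C3, below all WT-C3 libraries, a fall of 0.76 (SE 0.11, adjusted p = 0.000841). Of the 3 genes for the identical c-ring protein of ATP synthase, Atp5mc3 fell by 0.46 (adjusted p = 0.0214), while Atp5mc1 and Atp5mc2 had log2 fold changes of -0.27 (adjusted p = 0.0834) and -0.25 (adjusted p = 0.22). The catalytic subunit Atp5f1b had 791, 669, 746, 802 and 697 CPM in WT-C3 and 658, 728, 701, 772 and 746 CPM in C3, overlapping groups with a log2 fold change of -0.04 (SE 0.08, adjusted p = 0.736).

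In complex II, which carries electrons from succinate and belongs also to the citric acid cycle, Sdha had a log2 fold change of -0.26 (adjusted p = 0.065), Sdhb of 0.03, Sdhc of -0.16 and Sdhd of -0.04. The groups overlapped for Sdhb, at 56.9 to 69.0 CPM in WT-C3 and 53.5 to 74.7 CPM in C3. Among the other long members, Ndufs1, which carries iron-sulfur clusters in complex I, had a log2 fold change of -0.06 (adjusted p = 0.565) and Uqcrc1, a core protein of complex III, of 0.18 (adjusted p = 0.0903).

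Of the mitochondrial members, mt-Atp6, a subunit of the proton channel, had 12.4, 13.6, 32.8, 21.2 and 12.0 CPM in WT-C3 and 2.12, 1.63, 2.09, 18.7 and 4.25 CPM in C3. The C3 value of 9 weeks lay within the WT-C3 range and the others below it, and the log2 fold change was -2.31 (SE 0.59, adjusted p = 0.0153). mt-Co2 and mt-Co3, which also lie in the duplicated stretch, had -1.37 (adjusted p = 0.128) and -1.40 (adjusted p = 0.0909). The members outside it ranged less far, with -0.40 for mt-Nd1 (adjusted p = 0.116) and -0.28 for mt-Cytb (adjusted p = 0.257).

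**Figure D2:**
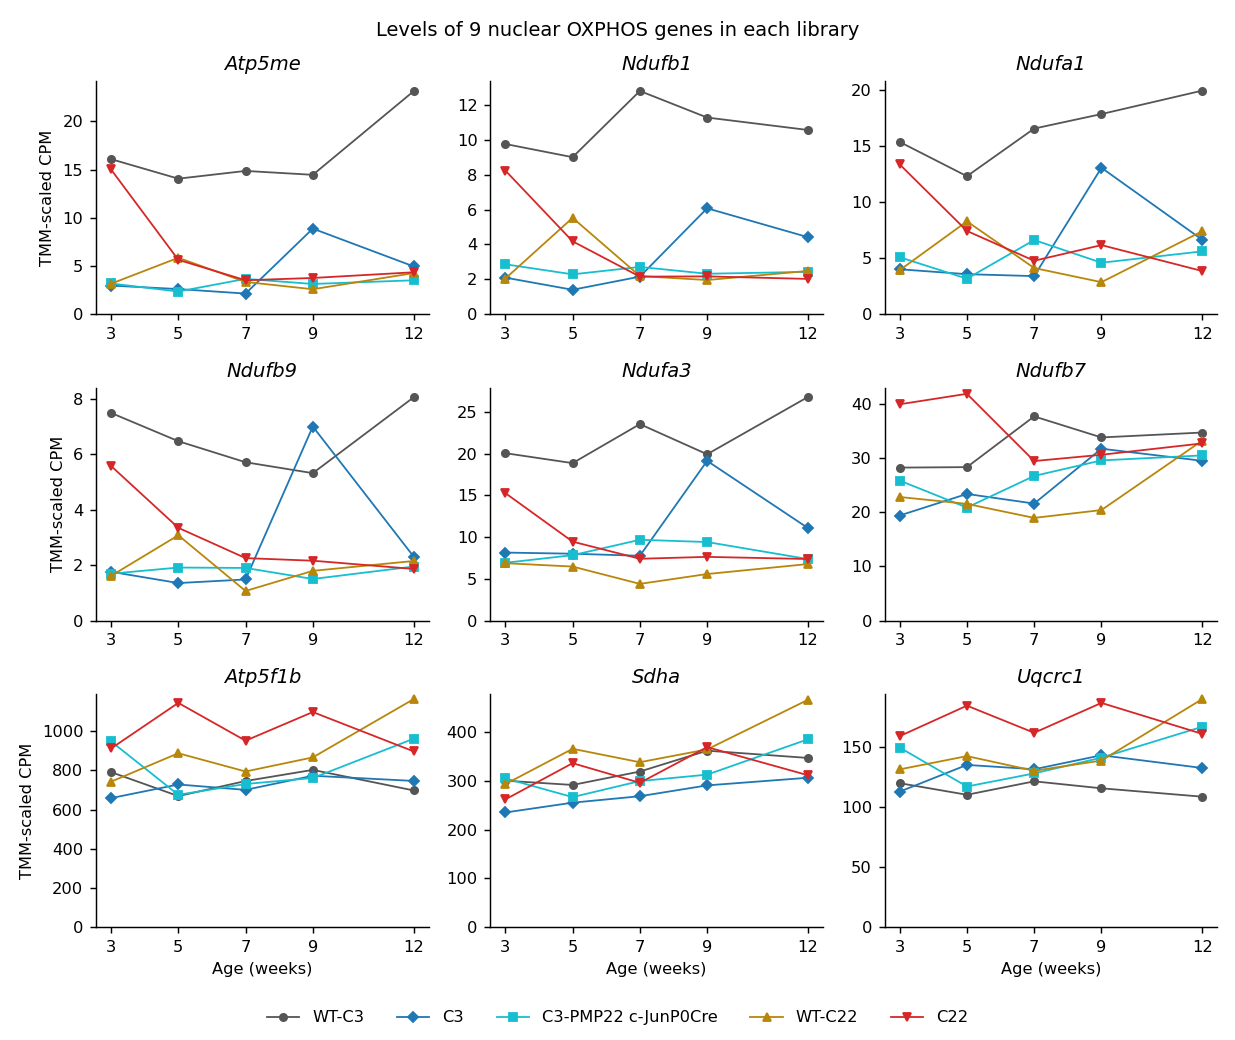
TMM-scaled CPM of 9 nuclear members, a panel each with its own axis from 0, against age in weeks, with a point per library and a line per group. Atp5me and Ndufb1 are highest in WT-C3 at every age, at 14.1 to 23.1 and 9.00 to 12.8 CPM, whereas the WT-C3 and C3 values of Atp5f1b overlap.

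The size of the difference followed the length of the coding sequence. Among nuclear members with at most 450 coding bases, 41 of 46 tested were lower in C3, with a median of -0.87. With more than 450 and up to 900 bases 11 of 23 were lower (median -0.29), and with more than 900 bases 2 of 12 were lower (median -0.05). All genes of the same length classes moved in the same order but less far, with 43.3%, 19.7% and 7.42% lower and medians of -0.37, -0.14 and 0.06.

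The mean log2(CPM + 0.5) of the short nuclear members was 4.64 to 4.85 in the WT-C3 libraries. It was 3.49, 3.65, 3.61, 4.48 and 4.30 in C3, 3.58 to 3.99 in C3-PMP22 c-JunP0Cre, 3.49 to 4.19 in WT-C22 and 4.74, 4.30, 3.84, 3.92 and 3.77 in C22. The mean of the 12 long ones lay between 6.75 and 7.44 in all groups. The WT-C3 libraries thus stood above all others in short relative to long members, and they held ranks 1 to 5 of 25 in that difference, followed by C22 at 3 weeks and C3 at 9 weeks. WT-C3 was also the group of lowest median depth, so that group and depth cannot be told apart.

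With a per-library offset for coding length, 31 members were lower and 1 higher in C3, with a median of -0.33, against 9.67% and 10.4% of 12855 genes. With libraries thinned to 9001002 counts and the C3 library of 9 weeks left out, 58 members were lower, against 10.7% of all genes, with a median of -0.60. Both settings were chosen after the data had been seen, and the part of library quality in the length pattern was not tested.

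**Figure D3:**
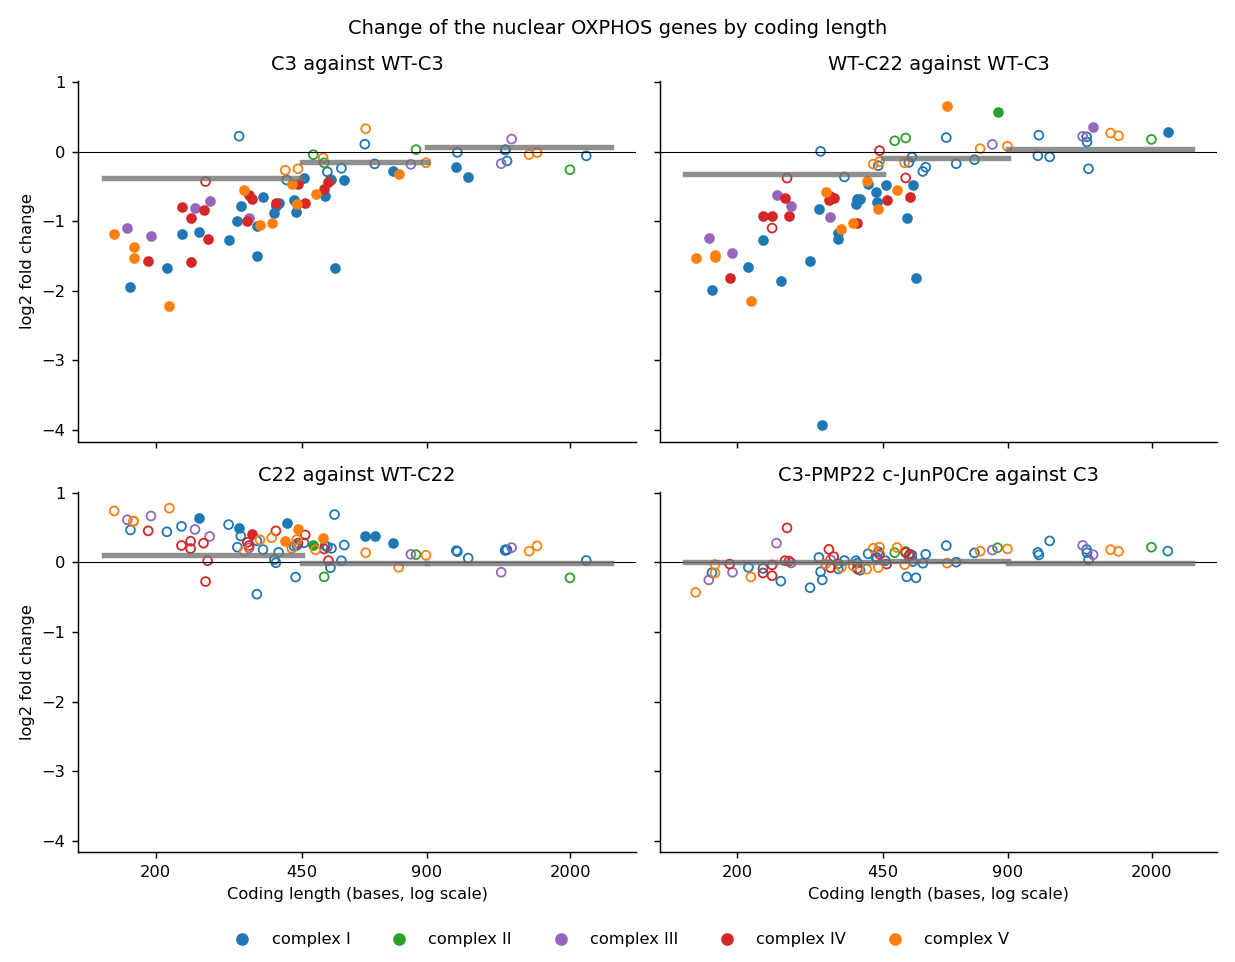
Log2 fold change of the nuclear members tested against coding length in bases on a log axis, in 4 comparisons. A point is a gene coloured by complex and filled where its adjusted p is under 0.05, and grey bars are medians of all genes of a length class. In C3 against WT-C3 the members of at most 450 bases lie lowest, with a median of -0.87, against -0.05 above 900 bases.

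**Figure D4:**
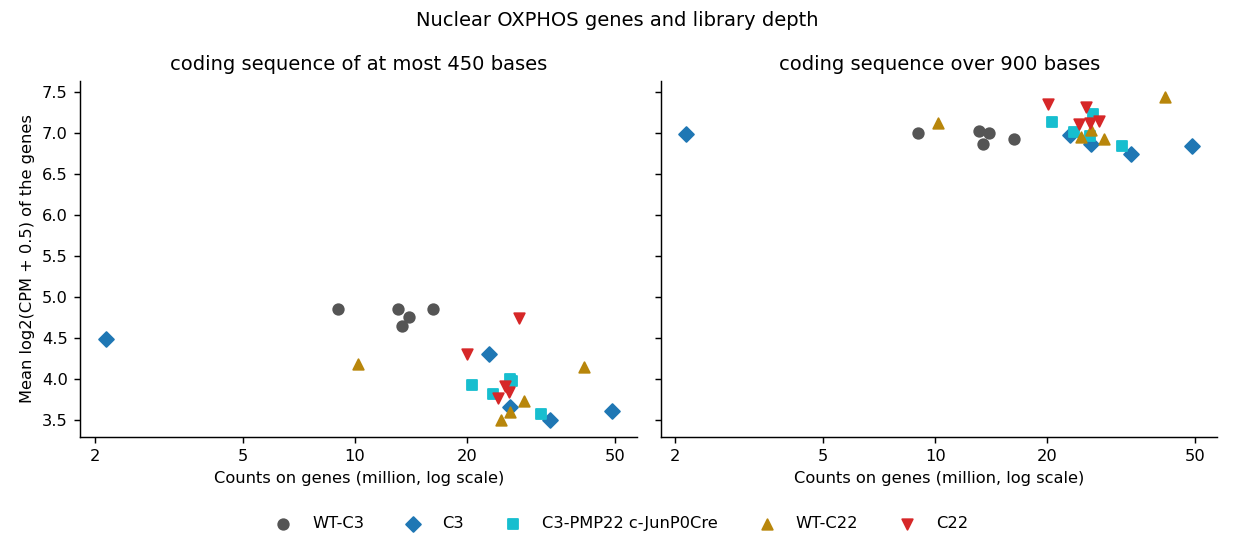
Mean log2(CPM + 0.5) of the short and of the long nuclear members, a panel each, against the counts on genes of each library on a log axis, with a point per library marked by group. The WT-C3 libraries lie at 4.64 to 4.85 in the panel of short genes, and the C3 library of 9 weeks is the point farthest left in both.

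In C22 against WT-C22, the nuclear subunits were slightly higher on balance and few passed the test. Of 91 members 11 were higher and 1 lower, against 21.9% and 20.5% of all genes, so the share of members called was below that of all genes. The median log2 fold change was 0.22 over the members and 0.00 over all genes. Groups did not overlap in 3 members that were higher and 0 that were lower, against 16.1% and 14.5% of all genes. Nuclear members of complex I had 6 of 36 higher, of complex II 1 of 4, of complex III 0 of 8, of complex IV 1 of 15 and of complex V 3 of 18, with 0 lower in each. With scaling by library size alone the median of all genes was 0.17, 5474 genes were higher and 1744 lower in place of 3070 and 2869, and 35 members were higher and 0 lower. With single libraries left out the count of members was 5 to 29, the highest without WT-C22 at 12 weeks and the lowest without C22 at 3 weeks or without WT-C22 at 9 weeks.

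Ndufa3, a small membrane-arm subunit (ENSMUSG00000035674, chr7:3620342-3623326, plus strand), had 6.88, 6.48, 4.40, 5.59 and 6.78 CPM in WT-C22 and 15.3, 9.47, 7.41, 7.64 and 7.39 CPM in C22. All C22 libraries lay above all WT-C22 libraries, and Ndufa3 rose by 0.64 (SE 0.22, adjusted p = 0.0327). Ndufb7 had 22.8, 21.6, 19.0, 20.4 and 33.3 CPM in WT-C22 and 40.0, 41.9, 29.5, 30.6 and 32.7 CPM in C22, where the WT-C22 library of 12 weeks was inside the C22 range, and rose by 0.57 (adjusted p = 0.0127). Ndufb2 rose by 0.50 (adjusted p = 0.0118), Atp5mc2 by 0.47 (SE 0.11, adjusted p = 0.00385) and Cox7a2 by 0.41 (adjusted p = 0.0473).

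Other members that rose were Ndufs7 and Ndufs8, which hold iron-sulfur clusters of complex I, by 0.38 each, Ndufv2 by 0.28, Atp5f1d by 0.36, Atp5mc1 by 0.31 and the membrane anchor Sdhd by 0.24. Sdha (-0.22), Sdhb (0.11) and Sdhc (-0.21) did not pass. Among the paralogs, Cox4i1 (0.19), Cox6a1 (0.24), Cox6b1 (0.28), Cox6b2 (0.02), Cox7a1 (0.20), Cox7a2l (0.03), Cox8a (0.39), Ndufa4 (0.29), Ndufa4l2 (-0.28) and Atp5mc3 (0.20) did not pass either, nor did Atp5if1 (0.33, adjusted p = 0.218).

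All 10 mitochondrial members had a log2 fold change below 0 in C22, with a median of -0.28. With scaling by library size alone, mt-Co1 (0.04), mt-Nd1 (0.04) and mt-Nd6 (0.10) lay above 0. mt-Nd2, a membrane subunit of complex I, had 1475, 2031, 1581, 1899 and 1737 CPM in WT-C22 and 1212, 1315, 1446, 1564 and 1415 CPM in C22. The groups overlapped, in that C22 at 9 weeks lay above WT-C22 at 3 weeks, and mt-Nd2 fell by 0.33 (SE 0.11, adjusted p = 0.032), a call lost with scaling by library size alone (-0.16, adjusted p = 0.267). Within the C22 group, the values of short members were highest at 3 weeks, with Atp5me at 15.0 CPM there and 3.51 to 5.63 CPM at the other ages, and without that library 4 members were higher and 1 lower.

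The change in C22 and the change in C3 were compared directly, in 1 fit of the 20 libraries. The difference, C22 minus C3, was positive in 44 members and negative in 0 past the threshold, against 4.75% and 7.31% of all genes, and its median was 0.73 over the members and -0.03 over all genes. Of the 44, 17 were nuclear members of complex I, 5 of complex III, 11 of complex IV and 11 of complex V, and 0 were of complex II or mitochondrial. It was largest for Atp5me at 2.97 (SE 0.55, adjusted p = 0.00119), Ndufb1 at 2.39 (adjusted p = 0.0091), Ndufb9 at 2.33 (adjusted p = 0.00462), Atp5mj (adjusted p = 0.00264) and Ndufa1 at 2.09 (adjusted p = 0.0103). Of the 55 members called in C3 and the 12 called in C22, 3 were shared (Cox7a2, Ndufa3 and Ndufv2), which is 5.45% and 25% of the lists, and these were lower in C3 and higher in C22. With the length offset 31 members had a positive difference, with a median of 0.45, against 3.53% of all genes. This difference contains the WT-C3 libraries, which held ranks 1 to 5 of 25 in short relative to long members. The shares of all genes are not matched for length, and the part of the WT-C3 libraries in the difference was not tested.

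The controls of the 2 strains were compared as well. In WT-C22 against WT-C3, which share their libraries with the comparisons above, 48 members were lower and 4 higher, against 11.7% and 9.99% of all genes, with a median of -0.48 over the members. In 37 members all WT-C22 libraries lay below all WT-C3 libraries, against 9.35% of genes, and in 4 they lay above, against 7.6%. By length, 38 of 46 short members, 7 of 23 intermediate and 0 of 12 long ones were lower, with medians of -0.88, -0.16 and 0.22. The shares of all genes called by length class are not given for this comparison. These counts are therefore not set apart from a shift of all short genes. With the length offset 35 were lower and 6 higher, against 9.41% and 9.1% of genes, with a median of -0.22.

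The 4 that were higher in WT-C22 were Atp5po, part of the peripheral stalk of ATP synthase (0.65, SE 0.15, adjusted p = 0.00822), Sdhb (0.56), Uqcrc1 (0.35) and Ndufs1 (0.28). Sdhb had 66.6, 56.9, 68.1, 69.0 and 57.3 CPM in WT-C3 and 84.7, 92.4, 86.8, 95.1 and 110 CPM in WT-C22. The WT-C22 libraries lay above all WT-C3 libraries. Those that fell most after Ndufs5 were mt-Atp6 (-2.39), Atp5me (-2.15), Ndufb1 (-1.99) and Ndufa3 (-1.86).

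Ndufs5 had the largest difference of all members, at 24.4, 23.7, 29.5, 26.9 and 29.0 CPM in WT-C3 and 1.65, 2.44, 1.81, 1.41 and 1.70 CPM in WT-C22. The log2 fold change was -3.93 (SE 0.14, adjusted p = 9.06e-09), 15.2-fold lower in WT-C22. The counts on its near-identical pseudogene moved the other way, at 6.21 to 10.4 CPM in WT-C22 and 0.550 to 0.915 CPM in WT-C3. The pseudogene held 78.3% to 86.0% of the summed counts of the pair in WT-C22 and 74.6% to 83.8% in C22, but 1.86% to 3.10% in WT-C3 and 0.829% to 2.04% in C3. The sum of the pair was 24.3 to 30.4 CPM in WT-C3 and 7.62 to 12.1 CPM in WT-C22, so the groups did not overlap in the sum either. In C3-PMP22 c-JunP0Cre, the share of the pseudogene was 2.13%, 3.85%, 7.98%, 17.4% and 20.0% from 3 to 12 weeks. Because the pair differs at 2 coding bases, the value of Ndufs5 alone is uncertain in every comparison across these groups.

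In C3-PMP22 c-JunP0Cre against C3, 0 of 91 members passed the test of edgeR, against 0.222% of all genes higher and 0.329% lower. The labels give no strain for C3-PMP22 c-JunP0Cre, and no group carries the Cre alone. Loss of c-Jun in Schwann cells and genetic background therefore cannot be told apart in this comparison. At an unadjusted p under 0.05 there were 12 members, against 7.83% of all genes. DESeq2 called 2, mt-Nd1 (DESeq2 adjusted p = 0.0463) and mt-Cytb (DESeq2 adjusted p = 0.0486), both just under the threshold. The share of all genes that DESeq2 called is not given here. The median was 0.04 over the members and 0.37 over the 10 mitochondrial ones. Libraries of the same age resembled each other in this comparison, and with age as a block 3 members were higher, against 1.17% of all genes. These were mt-Nd1 (0.61, adjusted p = 0.0251), mt-Nd2 (0.69, adjusted p = 0.0499) and mt-Cytb (0.57, adjusted p = 0.041).

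mt-Nd1 had 1934, 1803, 2095, 1074 and 2007 CPM in C3 and 3287, 2665, 2492, 2174 and 2674 CPM in C3-PMP22 c-JunP0Cre. mt-Cytb had 3716, 3795, 4084, 2243 and 4039 CPM in C3 and 6416, 5317, 4907, 4379 and 4958 CPM in C3-PMP22 c-JunP0Cre. In both genes, as in mt-Nd2, mt-Nd4 and Ndufa4l2, every library without c-Jun lay above every C3 library, which makes 5 members against 1.16% of all genes, and 0 lay below, against 1.11%. The lowest value in C3 was that of 9 weeks, the shallowest library, whose mitochondrial members summed to 10294 CPM against 19363 to 21344 CPM in the other C3 libraries.

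With all 10 libraries, mt-Co1 had a log2 fold change of 0.41 and mt-Nd5 of 0.32, and mt-Nd6, mt-Co2, mt-Co3 and mt-Atp6 had 0.12, -0.63, -0.57 and -0.32, with 0 of these called. Without the C3 library of 9 weeks the last 3 had 0.39, 0.23 and 0.37, so their sign rested on that library. With it left out and the others at equal depth 0 members were called, and the 10 mitochondrial members all lay above 0, with a median of 0.36. The lowest p was that of Ndufa4l2 (ENSMUSG00000040280, chr10:127350818-127353038, plus strand), which had 4.69, 5.54, 5.96, 3.27 and 5.65 CPM in C3 and 7.67, 7.09, 6.69, 7.96 and 7.52 CPM in C3-PMP22 c-JunP0Cre. All of the latter lay above C3, with a log2 fold change of 0.50 (SE 0.14, adjusted p = 0.219).

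**Figure D5:**
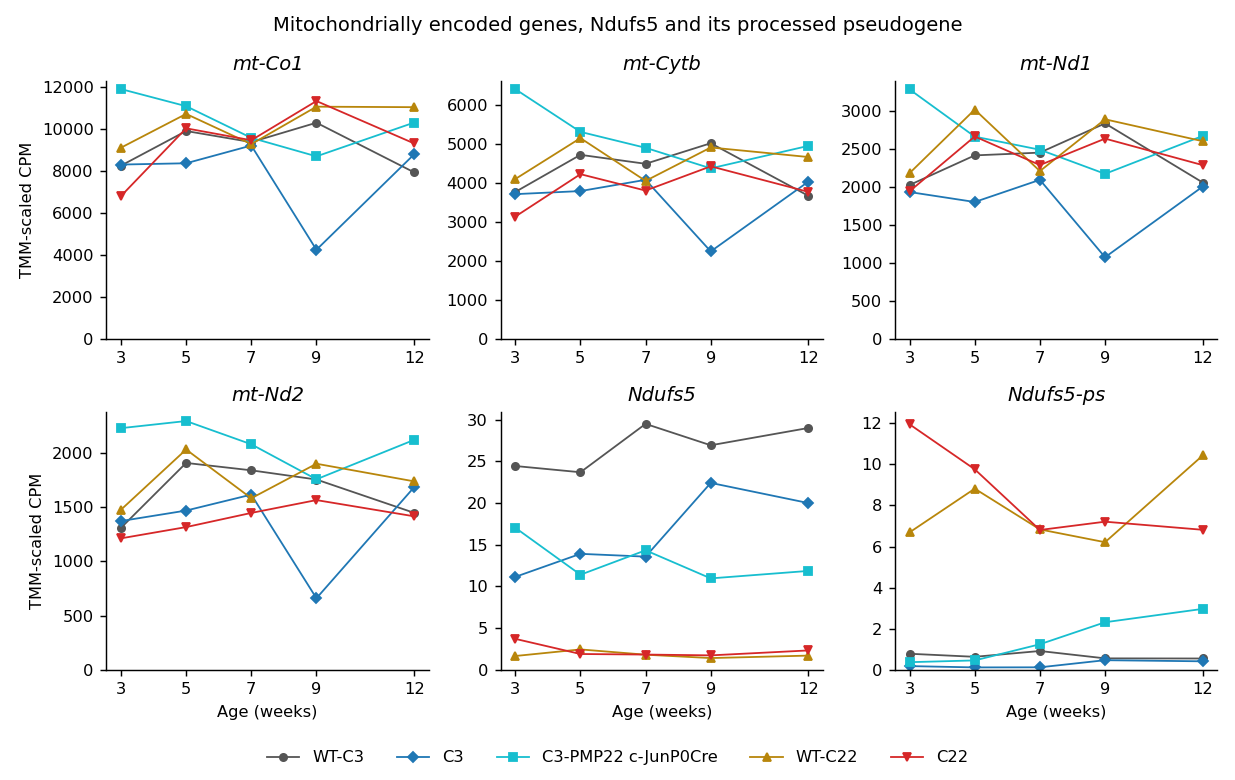
TMM-scaled CPM of 4 mitochondrial members, Ndufs5 and Ndufs5-ps, a panel each with its own axis from 0, against age in weeks, with a point per library and a line per group. C3 at 9 weeks is the lowest library for mt-Co1, mt-Cytb, mt-Nd1 and mt-Nd2, Ndufs5 is low and Ndufs5-ps high in both FVB/NRJ groups, and Ndufs5-ps reaches 2.97 CPM in C3-PMP22 c-JunP0Cre at 12 weeks.

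Change with age was examined within each group as a slope per week in 1 fit of all libraries. In C3, 16 members rose and 0 fell, against 3.52% and 2.44% of all genes, all of them nuclear. The steepest were Ndufa2 at 0.19 log2 units per week (SE 0.06, adjusted p = 0.0453), Uqcr11 at 0.18 (SE 0.05, adjusted p = 0.0392) and Ndufa5 at 0.17 (SE 0.04, adjusted p = 0.00967). Ndufa2 had 6.09, 7.28, 6.91, 28.5 and 15.5 CPM and Uqcr11, a small subunit of complex III, 8.13, 9.57, 9.70, 33.2 and 20.0 CPM. The level was high at 9 and 12 weeks, the ages at which the mean of the short members was also high, rather than changing evenly. Without the library of 12 weeks 1 member passed, without that of 3 weeks 0, and without that of 9 weeks 11.

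In C22, 76 of 91 slopes lay below 0, and 1 member fell and 0 rose past the test, against 0.307% and 0.477% of all genes. Atp5if1 fell by 0.11 per week (SE 0.02, adjusted p = 0.0441), at 44.1, 29.7, 24.0, 20.7 and 22.3 CPM, and it passed also with a spline of 3 degrees of freedom (adjusted p = 0.0376). The slope was no longer called without C22 at 3, 5 or 9 weeks, and without C22 at 12 weeks 4 members fell. In WT-C22, Ndufb10 rose by 0.08 per week (adjusted p = 0.0252) and Sdha by 0.06 (adjusted p = 0.0354), against 3.88% of all genes, and 0 fell, against 3.88%. Neither was called without WT-C22 at 3 weeks or without WT-C22 at 12 weeks. Sdha had 293, 365, 338, 364 and 466 CPM there, highest at 12 weeks. In WT-C3 and in C3-PMP22 c-JunP0Cre 0 members passed with edgeR, against 2.62% and 5.94% of all genes, with 5 and 3 of 91 at an unadjusted p under 0.05, against 15.8% and 20.0% of all genes, and DESeq2 was not run on slopes. The spline called 1 member in C22 (Atp5if1, against 0.752% of all genes) and 0 in the other groups, against 2.27% in C3, 0.693% in WT-C3, 3.38% in C3-PMP22 c-JunP0Cre and 2.86% in WT-C22. At an unadjusted p under 0.05 the spline had 41, 1, 8 and 29 of 91 members in these 4 groups, against 19.5%, 14.2%, 22.8% and 20.0% of all genes.

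Slopes did not differ past the threshold in any member between C3 and WT-C3, between C22 and WT-C22 or between C3-PMP22 c-JunP0Cre and C3, against 0.0196%, 0.464% and 0.00654% of all genes that passed. At an unadjusted p under 0.05 in edgeR there were 13, 54 and 9 of 91 members, against 6.8%, 12.9% and 2.45% of all genes. The lowest p between C22 and WT-C22 was that of Ndufb10, with -0.12 per week (SE 0.03, adjusted p = 0.0681).

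Cox6a2 and Cox8b, the isoforms of skeletal muscle and heart, were below the filter and were compared by exact two-sided permutation tests, 252 permutations each, with adjusted p-values of 0.838 to 0.952 over 8 comparisons. Cox6a2 had its highest values in WT-C22 at 5 weeks (7.01 CPM), C3 at 12 weeks (5.24 CPM), C22 at 3 weeks (3.81 CPM) and WT-C3 at 5 weeks (3.16 CPM). The 10 skeletal muscle markers together reached 9658, 5981, 2486 and 3918 CPM at most in these groups, with group medians of 74.8, 235, 391 and 381 CPM. In C3-PMP22 c-JunP0Cre they reached 982 CPM at most, and Cox6a2 0.622 CPM. Of the 9 muscle markers tested 0 were called in C3, C22, C3-PMP22 c-JunP0Cre or between the controls.

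Markers of other cells of the nerve were counted beside the members. The background for these counts is 12.5% of all genes higher and 11.4% lower in C3, and 21.9% higher and 20.5% lower in C22. Of 6 markers of pericytes and smooth muscle 3 were lower in C3 and 6 in C22, with 0 higher, and their sum lay at 386 to 492 CPM in C3 against 488 to 563 CPM in WT-C3 and at 358 to 452 CPM in C22 against 557 to 624 CPM in WT-C22. Of 5 endothelial markers 1 was lower in C3 and 4 in C22, with 0 higher. Of 7 markers of myelinating Schwann cells 2 were higher and 2 lower in C3, and 1 higher and 4 lower in C22, while their sum was lower in every model library, as given above. The 3 markers of repair Schwann cells that passed the filter were all higher in C3, and 2 were higher and 1 lower in C22. Of 6 macrophage and 5 fibroblast markers, 1 of each was lower in C22 and 0 were called in C3. Adipocyte, brown adipocyte and blood markers had 0 called in C3 and in C22. All 4 blood markers tested lay below 0 in C3, with a median of -1.65, and their sum was 117 to 1573 CPM in WT-C3 and 45.3 to 371 CPM in C3. The part of these cells in the values of the members was not tested.

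Among regulators of these genes, Ppargc1a, the coactivator that drives mitochondrial biogenesis, rose by 0.45 in C3 and by 1.25 in C22. Pprc1 rose by 0.47 and 0.43 and Nrf1, which binds promoters of many subunits, by 0.32 and 0.36. Of the 7 regulators tested 3 were higher in C3 and 5 in C22, and 0 lower. In C22, Esrra rose by 0.58 and Gabpa by 0.28. Among the 6 tested subunits and carriers outside the symbol rule, Cycs, cytochrome c, fell by 0.29 and Ndufab1 by 0.34 in C3, whereas in C22 Cyc1 rose by 0.42 and Ndufab1 by 0.27, and Dmac2l fell by 0.40. Over all genes, 12.5% were higher and 11.4% lower in C3, and 21.9% higher and 20.5% lower in C22, the background for the counts of these lists. Of 47 assembly factors 1 was higher and 10 lower in C3, and 10 higher and 2 lower in C22. Of 21 genes of mitochondrial DNA maintenance and expression, 5 were higher and 1 lower in C3 and 6 higher and 2 lower in C22. Of 16 genes of the citric acid cycle, 1 was higher and 1 lower in C3, 2 higher and 1 lower in C22, and 7 higher in WT-C22 than in WT-C3, where 9.99% of all genes were higher. In C3-PMP22 c-JunP0Cre against C3, 0 were called in any of these 5 lists.

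Promoters of RefSeq on GRCm38.p6, from 250 bases before to 50 after the start, were matched for 67 of the 83 nuclear members. A gene was counted where any of its promoters held the motif on either strand. The motif of NRF1, GCGCA and GCGC with any base between them, was in 17 (25.4%) against 7.2% of 17492 protein-coding genes. CCGGAAG, bound by GABPA, was in 16 (23.9%) against 12.9%, and AAGATGGC, bound by YY1, in 10 (14.9%) against 3.6%. Promoters of Sdhd, Cox6a1, Atp5me and Atp5pd held both the first and the second of these motifs. That of Atp5pd, a subunit of the peripheral stalk that fell by 0.61 in C3 (adjusted p = 0.00421) and had 0.18 in C22 (adjusted p = 0.278), is shown with both in capitals (chr11:115419920-115420069, minus strand). It was picked by the number of motifs within the 150 bases printed, and then by mean CPM.
Atp5pd promoter: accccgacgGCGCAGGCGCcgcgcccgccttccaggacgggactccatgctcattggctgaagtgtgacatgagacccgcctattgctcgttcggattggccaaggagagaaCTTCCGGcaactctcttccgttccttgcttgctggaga
The match is a description of these letters and no test of binding.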

How the data were processed

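Sciatic nerve RNA of 25 libraries was analysed. The authors enriched poly(A) RNA, made directional libraries, trimmed reads with cutadapt 2.10, aligned them with STAR 2.7.5a to GRCm39 with the human transgene locus added, removed duplicates with UMI-tools 1.1.1 and counted fragments with HTSeq 0.12.4, and deposited raw counts per gene without normalization. Lines that name no gene were left out: 8.12% to 12.1% of fragments lay on no gene and 2.76% to 3.93% aligned to several places. Symbols were matched for 56323 of 56941 mouse genes.

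Counts were tested in R 4.3.3 with edgeR 4.0.16 (TMM, quasi-likelihood, group as the only term, Benjamini-Hochberg adjustment, threshold 0.05) on the 13993 genes whose log2 CPM exceeded 1 in 7 or more libraries, and on 15298 genes past filterByExpr for age (a linear slope and a spline with 3 degrees of freedom). Alternatives were DESeq2 1.42.0, other size factors, other filters, 1 fit of all libraries, an age block, leaving out each library and, chosen after seeing the data, a coding-length offset (12855 genes, loess span 0.4) and equal depth. Copies were sought with blastn 2.17.0. Samples were grouped by their labels. The same-age check gave correlations of 0.445, 0.143, 0.325, 0.289 and 0.614 from 3 to 12 weeks for C3-PMP22 c-JunP0Cre against C3, so age was used there as a block beside the main test. Only the test of C3 against WT-C3 and the age slope in C3 were tried on simulated counts. Among 13993 genes, 100 were changed by 0.5 and 100 by 1 on the log2 scale, of which 16% and 91% were recovered, with 4 false calls. Of slopes of 0.15 per week, 52.5% were recovered, with 5 false calls. Members with small changes can therefore stay uncalled. Fewer genes were changed in these simulations than were called in the data, and all genes were given the same spread. The share recovered in the data may therefore differ.

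Genes named are the 13 mitochondrial genes, the paralog sets of complexes IV and V, Ndufa4 and Ndufa4l2, the complex II subunits and Atp5if1, up to 5 called members that rose and fell most per comparison or the one of lowest p, up to 3 slopes each way per group, and the most and least abundant per complex. Other members were named after their values were seen. The members, lists and tests were chosen with earlier results of these data known. Depth of 2140142 to 49072746 counts limits low genes, and 3 counts in a library are the limit of detection, for counting error only.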

Additional observations from a re-analysis of the deposited data

Results flagged for a closer look

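Of 130 groups of 5 values examined, 21 had a sample far from the others by Dixon's criterion of 0.71, and about 1 in 20 groups is singled out by chance. The C3 library of 9 weeks, the shallowest, had the sum of the mitochondrial members at 10294 CPM (others 19363 to 21344), mt-Co1 at 4231, mt-Cytb at 2243 and mt-Nd1 at 1074 CPM, all low, and mt-Atp6 at 18.7 and Ndufb9 at 7.01 CPM, both high. WT-C22 at 5 weeks had high values of Cox6a2 (7.01 CPM), Cox8b (2.66), Cox7a1 (4.14), Ndufb1 (5.52) and mt-Atp6 (7.12) and a low value of Ndufa4l2 (3.19 CPM). C22 at 3 weeks had high values of Cox6a2 (3.81), Cox8b (3.74), Atp5me (15.0) and Ndufa3 (15.3 CPM).

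Single values far from their group were Atp5me at 23.1 CPM and Ndufb7 at 33.3 CPM in WT-C3 and WT-C22 at 12 weeks, Cox6a2 at 5.24 CPM in C3 at 12 weeks, Ndufa2 at 5.60 CPM in C3-PMP22 c-JunP0Cre at 5 weeks, and the mean log2 CPM of nuclear complex V at 5.84 in WT-C3 at 5 weeks. The change between model and control differed between C22 and C3 in 44 members by the test of the difference. The pseudogene Ndufs5-ps, which is no member, reached 2.97 CPM in C3-PMP22 c-JunP0Cre, where C3 lay between 0.116 and 0.467 CPM.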

How the results depend on the processing

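The count of members past the threshold in C3 against WT-C3 (55) was 32 with the length offset. In C22 against WT-C22 (12) it was 35 with library size only, all higher, and 7 without a filter on low counts. In C3-PMP22 c-JunP0Cre against C3 (0) it was 2 with DESeq2 and 3 with age as a replicate block. The log2 ratio of the summed mitochondrial members there (0.50) was 0.0875 as a share of the counts on all members, a measure that cannot exceed 0.348 there because these members already held a mean of 78.9% in C3. With the spline in C3 (0 called) a linear slope gave 16 and 2 degrees of freedom 1, and in WT-C22 (0 called) 2 and 1. The cause of the other shifts was not tested.

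When single libraries were left out, counts ran from 39 to 60 in C3, 5 to 29 in C22, 38 to 58 for the difference, 0 to 0 in C3-PMP22 c-JunP0Cre and 46 to 59 between the controls. In C22 the count was 5 without C22 at 3 weeks or WT-C22 at 9 weeks, 6 without C22 at 5 weeks or WT-C22 at 7 weeks, and 29 without WT-C22 at 12 weeks. For slopes they ran from 0 to 15 in C3, 0 to 4 in C22, 0 to 2 in WT-C22 and 0 to 0 in WT-C3 and C3-PMP22 c-JunP0Cre, and slope differences from 0 to 0. With age as a replicate block the counts were 59 in C3, 14 in C22, 48 for the difference and 54 between the controls. The shares of all genes called with the age block or with a library left out are not given here. Whether these counts moved with those of all genes therefore cannot be read from them. Same-age deviations correlated at -0.252 to 0.382 in C3, -0.128 to 0.45 in C22 and 0.0602 to 0.667 between the controls, so not every age reached 0.1, and the difference was not checked this way. Over named genes and settings, 3815 values kept their direction and call, 180 values without a call changed sign, 147 lost the threshold, 73 passed it and 0 called values reversed. Depth limits the C3 library of 9 weeks and the WT-C3 group most.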
